A study of Mus musculus with 34 samples.

Results

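Mouse colon tumour organoids carrying a hairpin labelled shYAP (3 libraries) were set against organoids carrying a control hairpin (shControl, 10 libraries), and all 11094 genes that passed a filter on low counts were compared. These 13 libraries are part of a series of 34, in which the others come from 2 Degs1 knockout clones (9 libraries each) and their Scrambled CRISPR control (3 libraries). Every organoid line shares the genotype given as AKP, is labelled epithelial and was grown as a tumour organoid, a 3-dimensional epithelial culture. Polyadenylated RNA was extracted from the organoids and sequenced as stranded libraries. The shYAP organoids were made with a hairpin against Yap1 to knock the gene down, and the column names give the same hairpin number for all 3 libraries, so 1 hairpin stands for the knockdown. The sources used here give neither its sequence nor whether replicates were separate cultures, so p-values measure the spread between libraries, which may be technical.

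Yap1 encodes YAP, the transcriptional coactivator at the end of the Hippo pathway. Hippo kinases phosphorylate YAP and its paralog TAZ (the Wwtr1 gene product), which keeps both out of the nucleus, and unphosphorylated YAP and TAZ bind TEAD factors and switch on genes for growth, matrix and adhesion. In the intestine YAP is known for a regenerative state after injury, in which crypt cells lose Lgr5 and gain Clu, Ly6a and annexins, a state called revival or fetal-like. In colon tumours the balance between this state and the Wnt-driven crypt-base stem cell state has been studied as a source of plasticity.

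Hairpin libraries held 1747533 to 5914945 counts, with shControl replicate 3 the shallowest, and those labelled shYAP held 4238192 to 4467248. Levels are CPM, counts relative to the scaled library total, and they are not divided by gene length, so they are compared between libraries and not between genes. A list of 9 colon epithelial markers summed to 3645 to 3781 CPM in shYAP-labelled libraries and 3662 to 4125 CPM in shControl. Of these markers 2 fell, Epcam and Cdx1, each below every shControl library, and 7 did not pass the test used below. Fibroblast markers summed to at most 1.22 CPM in shYAP-labelled libraries and 0.964 in shControl, with 4 of 7 at 0 in every library, and neural and muscle markers to at most 0.487 CPM in the first and 0.724 CPM in shControl. The 4 endothelial markers, 2 of them at 0, summed to 1.81 to 4.40 CPM in shYAP-labelled libraries and 1.20 to 3.09 in shControl. The 7 immune markers summed to 12.9 to 16.1 CPM in shYAP-labelled libraries and 15.7 to 41.9 CPM in shControl. Nearly all of that was Cd68, a lysosomal protein gene, which fell (-0.996 ± 0.27, edgeR adjusted p = 0.0189), while the T cell gene Cd3e was at 0 in all 13 libraries. The part of these markers in the results was not tested. In bulk RNA, fewer cells of a type and less RNA per cell cannot be told apart.

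The shControl libraries were not alike, and this touches every result below. The library numbers in the column names run on from one replicate to the next, with a gap after shControl replicate 4, and those labelled shYAP follow directly on shControl replicate 10. On the first principal component (27% of the variance) shControl replicates 1 to 4 lay at -63.3 to -30.7, replicates 5 to 7 at -6.92 to -1.92, replicates 8 to 10 at 15.5 to 16.8 and shYAP-labelled libraries at 39.4 to 43. Across genes, log2 CPM correlated at 0.937 to 0.947 between shYAP-labelled libraries and shControl replicates 8 to 10, at 0.885 to 0.923 with replicates 1 to 4 and at 0.965 to 0.968 among shYAP-labelled libraries. The hairpin and the place in the numbering cannot be told apart, since all 3 shYAP libraries stand at its end. Each comparison was therefore repeated against shControl replicates 1 to 4, 5 to 7 and 8 to 10, here called runs. No label names a run. The numbering has no gap between replicates 7 and 8, so that split came from earlier results of these data. The 3 comparisons share shYAP-labelled libraries, and replicates 8 to 10 were the nearest to these in number and in profile.

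The targeted transcript was measured first. Yap1 (ENSMUSG00000053110, chromosome 9, 7931999 to 8004596, minus strand, mm10) had 20.5, 19.7 and 18.4 CPM in shYAP-labelled libraries, against 9.65 to 22.6 CPM in shControl (median 16.8). The shYAP-labelled libraries lay within the range of shControl, and in no shControl run did all libraries lie above them. The log2 fold change of shYAP over shControl, given here and below ± SE, was 0.20 ± 0.23 (edgeR adjusted p = 0.619), and its 95% confidence bounds were -0.27 and 0.66. Against the runs it was 0.52 against replicates 1 to 4, -0.065 against 5 to 7 and 0.077 against 8 to 10. Yap1 mRNA, not lower, went against the label, protein was not measured, and no direction below rests on a measured loss of Yap1. Wwtr1, which encodes TAZ, had 18.1, 15.3 and 12.7 CPM in shYAP-labelled libraries, against 8.21 to 22.7 CPM in shControl (median 15.6), a fold change of 0.035 ± 0.27 (edgeR adjusted p = 0.949).

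Among 28 tested Hippo components, 2 fell and 0 rose, and the median log2 fold change was -0.09, beside -0.05 over all genes tested. Over all genes, 11.4% passed the test (an adjusted p under 0.05), 5.47% as higher and 5.9% as lower in shYAP-labelled libraries. Tead2, a DNA-binding partner of YAP, had 0.978, 1.46 and 3.4 CPM in shYAP-labelled libraries, against 3.27 to 9.84 CPM in shControl (median 6.34). It fell, with a change of -1.67 ± 0.43 (edgeR adjusted p = 0.0164), and 1 shYAP-labelled library lay inside the shControl range. Vgll4, which competes with YAP for TEAD factors, had 37.9, 33.3 and 41.3 CPM in shYAP-labelled libraries, against 45.8 to 71.7 CPM in shControl (median 54.9), and every shYAP-labelled library lay below every shControl library (-0.58 ± 0.17, edgeR adjusted p = 0.0281). Tead1 at -0.63 ± 0.31 and the kinase gene Stk3 at 0.42 ± 0.17 did not pass. The calls of Tead2 and Vgll4 were lost without shYAP replicate 1 and without replicate 2, and that of Vgll4 without replicate 3 as well.

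Of 17 tested YAP/TAZ-TEAD targets, 3 fell, 0 rose and 14 did not pass, with a median of -0.35. Gadd45b, a stress-induced growth arrest gene, had 3.18, 3.4 and 4.99 CPM in shYAP-labelled libraries, against 5.81 to 28.4 CPM in shControl (median 9.28), a change of -1.75 ± 0.50 (edgeR adjusted p = 0.0297). All 3 shYAP-labelled libraries lay below shControl, whose replicates 5 to 7 were the highest. F3, which encodes tissue factor, the starter of coagulation, also lay below all shControl libraries, at 16.9, 16.3 and 11.8 CPM in shYAP-labelled libraries, against 18 to 46.6 CPM in shControl (median 28.8), a change of -0.99 ± 0.29 (edgeR adjusted p = 0.0297). For Ccn1, a secreted matrix protein and one of the most used YAP reporters, the values were 8.8, 8.27 and 6.8 CPM in shYAP-labelled libraries, against 7.93 to 23.3 CPM in shControl (median 15.8), with overlap (-0.92 ± 0.30, edgeR adjusted p = 0.046). Of these 3 calls 0 held without shYAP replicate 1, without replicate 2 or without replicate 3, where 2.26%, 1.9% and 2.37% of all genes were lower, and limma with runs as random blocks called 0 (1.59% of all genes lower). Gadd45b passed against each of the 3 runs, while F3 and Ccn1 did not against replicates 8 to 10. Ccn2, the other classic reporter, had 14.7, 11.4 and 13.4 CPM in shYAP-labelled libraries, against 6 to 16 CPM in shControl (median 8.57), a value of 0.43 ± 0.28 (edgeR adjusted p = 0.344). Its value against the runs was 0.61 against replicates 1 to 4, -0.093 against 5 to 7 and 0.80 against 8 to 10, and only the last passed.

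The other targets did not pass. Myof, a membrane repair protein gene, had 72.1, 62.5 and 57.8 CPM in shYAP-labelled libraries, against 32.9 to 61.3 CPM in shControl (median 45.7), a change of 0.49 ± 0.18 (edgeR adjusted p = 0.0806), and Rbms3, which encodes an RNA-binding protein, had 0.43 ± 0.21 (adjusted p = 0.184). Ankrd1, a muscle and stress ankyrin repeat gene often used as a YAP target, was near the limit of detection, with 22 counts over the 3 shYAP-labelled libraries (0.0089 ± 0.80, edgeR adjusted p = 0.995). Values for Amotl2 (-0.36 ± 0.51), Ajuba (-0.35 ± 0.28) and Lats2 (-0.16 ± 0.64), which encode Hippo regulators that YAP itself induces, did not pass, nor did Crim1 (-0.37 ± 0.40), Ptpn14 (-0.54 ± 0.33), Wwc1 (-0.099 ± 0.37), Dock5 (-0.35 ± 0.26), Asap1 (-0.32 ± 0.28), Arhgef17 (-0.88 ± 0.53) or Nuak2 (-1.18 ± 0.72). Against replicates 8 to 10 alone, 3 targets were higher and 1 lower, where 11.9% and 10.1% of all genes passed. Against replicates 1 to 4 it was 1 higher and 3 lower, with 12.3% and 13% of all genes, and against 5 to 7 it was 0 higher and 3 lower, with 14.9% and 14.8%. The plot of Hippo genes by library shows these values.

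**Figure D1:**
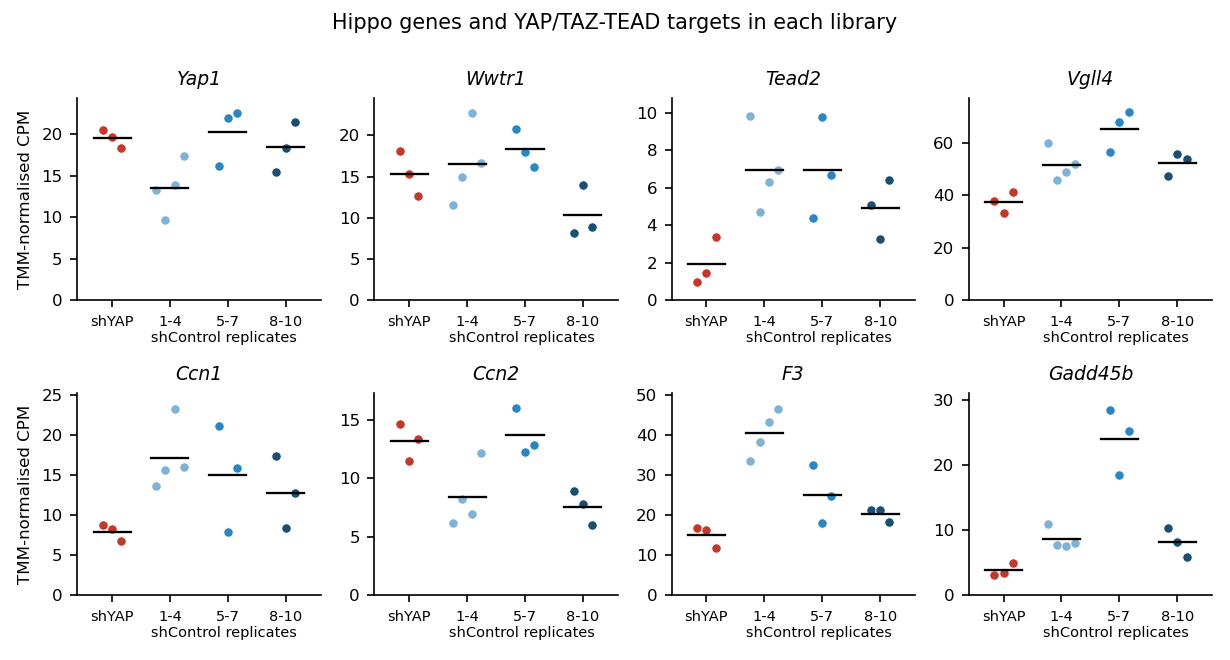
TMM-normalised CPM (vertical axes, linear, from 0) of 4 Hippo genes and 4 YAP/TAZ-TEAD targets in each shYAP-labelled library (red, left) and each shControl library, split by replicate numbers 1 to 4, 5 to 7 and 8 to 10; black lines are means of the points above each tick. Yap1 points of shYAP-labelled libraries, at 18.4 to 20.5 CPM, lie inside the shControl range, and those of Gadd45b, F3 and Vgll4 lie below it.

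TEAD factors bind the letters GGAATG, here searched on both strands in RefSeq promoter windows (GRCm38.p6, 250 bases before to 50 after a start site). Of 16 listed targets with a window, 8 held the motif, and 4481 of 27025 genes with a window (16.6%) did. Among the 3 targets that fell, 1 had it, Ccn1, shown here because it is the called target whose window holds the motif. The stretch, on the minus strand of chr3:145650068-145650103, starts 118 and ends 83 bases before the start site, with the motif read from the other strand in capitals.
Ccn1: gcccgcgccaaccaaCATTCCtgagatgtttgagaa
Of 1194 tested genes with GGAATG in a window, 6.03% rose and 6.03% fell, and their median was -0.05. A match of these letters is not a measured binding site.

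Across all genes, 607 rose and 654 fell in shYAP-labelled libraries, 1261 in all. Every shYAP-labelled library lay above every shControl library for 654 genes (5.9%) and below for 596 (5.37%). Against each of the 3 runs separately, with the same sign, 711 genes passed (6.41%), 391 of them higher (3.52%) and 320 lower (2.88%). Counts depended on the libraries: 509, 412 and 515 genes passed without shYAP replicate 1, 2 and 3, and 298 with runs as random blocks in limma. Of 131 named genes past the threshold, 67 passed without each shYAP library in turn.

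The largest rises among well-measured genes (a mean log2 CPM of at least 3) were led by Hspb1, a small heat shock protein gene, with 219, 251 and 166 CPM in shYAP-labelled libraries, against 10.1 to 67.7 CPM in shControl (median 13.8). Its fold change was 3.06 ± 0.54 (edgeR adjusted p = 0.00462), and shControl replicates 2 to 4 (47.4 to 67.7 CPM) were the highest controls. Trbc1, annotated as a T cell receptor constant-region gene, had 345, 341 and 325 CPM in shYAP-labelled libraries, against 36 to 99.6 CPM in shControl (median 45.5), a change of 2.61 ± 0.23 (edgeR adjusted p = 7.13e-07). Bmp4, a ligand that restrains stem cells in the intestine, had 59.1, 54.7 and 41.9 CPM in shYAP-labelled libraries, against 3.54 to 16.2 CPM in shControl (median 9.6), 2.48 ± 0.26 (edgeR adjusted p = 2.39e-06). In each of these 3 genes the groups did not overlap. Khdc1a, a gene of the germline and early embryo, reached 113, 100.5 and 93.6 CPM, against 8.68 to 28 CPM in shControl (2.44 ± 0.20). The rest included Upk1b, which encodes a uroplakin of the urothelium (2.02 ± 0.41), Tmem40 (2.50 ± 0.31) and Tm4sf1, a tetraspan surface protein gene (1.91 ± 0.30). Adtrp (2.07 ± 0.24), the GABA receptor subunit gene Gabrp (1.999 ± 0.24), the adhesion molecule Icam1 (1.94 ± 0.42), Wfdc18 (1.93 ± 0.34) and Clu (1.92 ± 0.25) completed the 12. All 12 passed against each of the 3 runs, and 11 passed without each shYAP library in turn; Icam1 did not without replicate 2.

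Several genes that fell were almost lost. Slc25a4, which encodes an ADP/ATP carrier of the mitochondrial inner membrane, had 2.69, 4.13 and 2.72 CPM in shYAP-labelled libraries, against 47.6 to 108 CPM in shControl (median 77.1), a change of -4.58 ± 0.33 (edgeR adjusted p = 2.93e-08). Its 3 shYAP-labelled libraries held 40 counts in all, above the floor of 3 counts. Prox1, a transcription factor and a Wnt target in colon tumours, had 5 counts over the 3 shYAP-labelled libraries, against 6.57 to 15 CPM in shControl (-4.62 ± 0.51, edgeR adjusted p = 4.81e-06). Bex1, an X-linked gene expressed in neurons, had 4 counts, against 4.72 to 18.8 CPM (-5.22 ± 0.53, edgeR adjusted p = 1.71e-06). Zfp422 (-4.43 ± 0.42, 12 counts), the albumin gene Alb (-4.34 ± 0.55, 6 counts) and Espn, an actin bundler (-3.95 ± 0.57, 13 counts), were as rare. For genes with so few counts the fitted fold change depends on how zeros are handled. Prelp (-3.57 ± 0.59), Upk3a (-3.47 ± 0.41), the glucuronosyltransferase Ugt2b34 (-3.17 ± 0.34), Tspan32 (-3.08 ± 0.51), the Wnt receptor Fzd7 (-3.03 ± 0.49) and the proton channel Otop1 (-2.96 ± 0.34) were the others. In all 12 genes every shYAP-labelled library lay below every shControl library, and all 12 passed against each run and without each shYAP library in turn. Against Scrambled, Alb had -0.42 (edgeR adjusted p = 0.878) and Prelp -2.46 (adjusted p = 0.0619), and the other 10 passed. Upk1b rose and Upk3a fell, though both encode uroplakins. Ugt2b genes share sequence, so the split of reads among them is uncertain.

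Revival and fetal-like stem cell markers rose: 16 of 23 tested were higher, 0 lower and 7 did not pass, with a median log2 fold change of 0.73, beside 5.47% of all genes higher and a median of -0.05. Clu, which encodes the secreted chaperone clusterin and marks revival stem cells, had 44.5, 45.7 and 39.5 CPM in shYAP-labelled libraries, against 3.97 to 17.6 CPM in shControl (median 11.5), a change of 1.92 ± 0.25 (edgeR adjusted p = 4.58e-05). The EGFR ligands Areg, at 90.9, 85.4 and 80.9 CPM in shYAP-labelled libraries, against 11.2 to 54 CPM in shControl (median 36), a change of 1.41 ± 0.38 (edgeR adjusted p = 0.0303), and Ereg, at 12, 8.03 and 6.8 CPM in shYAP-labelled libraries, against 0.386 to 6.57 CPM in shControl (median 3.71), a change of 1.29 ± 0.42 (adjusted p = 0.0471), were also above every shControl library. Il1rn, the interleukin-1 receptor antagonist, had 282, 328 and 326 CPM in shYAP-labelled libraries, against 86.6 to 184 CPM in shControl (median 154), a change of 1.09 ± 0.16 (edgeR adjusted p = 0.000108). Spp1, which encodes osteopontin, reached 36.4, 37.5 and 41.7 CPM, against 11.2 to 26.4 CPM in shControl (1.04 ± 0.21, edgeR adjusted p = 0.00265).

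Ly6a, the Sca-1 gene and the usual marker of the fetal-like state, had 4170, 4242 and 3477 CPM in shYAP-labelled libraries, against 1555 to 2692 CPM in shControl (median 1959), a change of 0.93 ± 0.13 (edgeR adjusted p = 0.000109). Anxa1, which encodes an annexin of the same state, had 2333, 2518 and 2575 CPM in shYAP-labelled libraries, against 1214 to 2213 CPM in shControl (median 1360), a change of 0.73 ± 0.15 (edgeR adjusted p = 0.00399). Of the others that rose, Ly6c1 (0.88 ± 0.17), Anxa3 (0.79 ± 0.12), the TWEAK receptor Tnfrsf12a (0.79 ± 0.16), the alarmin Il33 (0.77 ± 0.22) and Anxa2 (0.52 ± 0.10) also passed against each run, as did 11 of the 16 in all. In 15 of the 23 all shYAP-labelled libraries lay above all shControl libraries. The count of members higher was 10, 9 and 10 without shYAP replicate 1, 2 and 3, where 2.14%, 1.66% and 2.09% of all genes were higher. It was 8 with runs as random blocks in limma (1.1% of all genes). Areg and Ereg were lost in each of these. Set against the Scrambled CRISPR control in place of shControl, 6 members were higher (5.12% of all genes) and Spp1 had -0.11. The members that rose included immune mediators (Il33, Il1rn) and calcium-binding membrane proteins (the annexins) beside stem cell markers.

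Crypt-base stem cell genes ran the other way, with 5 of 17 lower, 0 higher and a median of -0.64. Lgr5, the R-spondin receptor that marks these cells, had 1.96, 1.7 and 2.72 CPM in shYAP-labelled libraries, against 4.05 to 14.8 CPM in shControl (median 7.16), all 3 below shControl (-1.84 ± 0.44, edgeR adjusted p = 0.00951). Smoc2, a matricellular gene of the same cells, had 4 counts in all in shYAP-labelled libraries, against 1.85 to 16.3 CPM in shControl (-4.61 ± 0.92, edgeR adjusted p = 0.00411), with shControl replicates 8 to 10 the highest. Myb, a transcription factor of crypt progenitors, had 0.489, 0.973 and 1.36 CPM in shYAP-labelled libraries, against 2.67 to 15.5 CPM in shControl (median 8.29), a change of -3.09 ± 0.52 (edgeR adjusted p = 0.000547). Lrig1, a brake on EGFR signalling and a stem cell marker, had -1.76 ± 0.44 (edgeR adjusted p = 0.0135) with overlap, and Ephb2, the receptor that positions cells along the crypt, had -0.92 ± 0.27 (adjusted p = 0.0297) without. Members that did not pass included Ascl2 (-1.43 ± 0.54), Sox9 (-0.85 ± 0.28) and Axin2 (-0.52 ± 0.26). Without shYAP replicate 1, 2 and 3 the count lower was 2, 3 and 3, and with runs as random blocks 2. Smoc2 and Myb passed without each of the 3 in turn, and Lgr5 did not without replicate 1 or 2. Of the 5 that fell, 3 passed against each run. Against replicates 1 to 4, Lgr5 did not pass and Smoc2 was not tested.

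**Figure D2:**
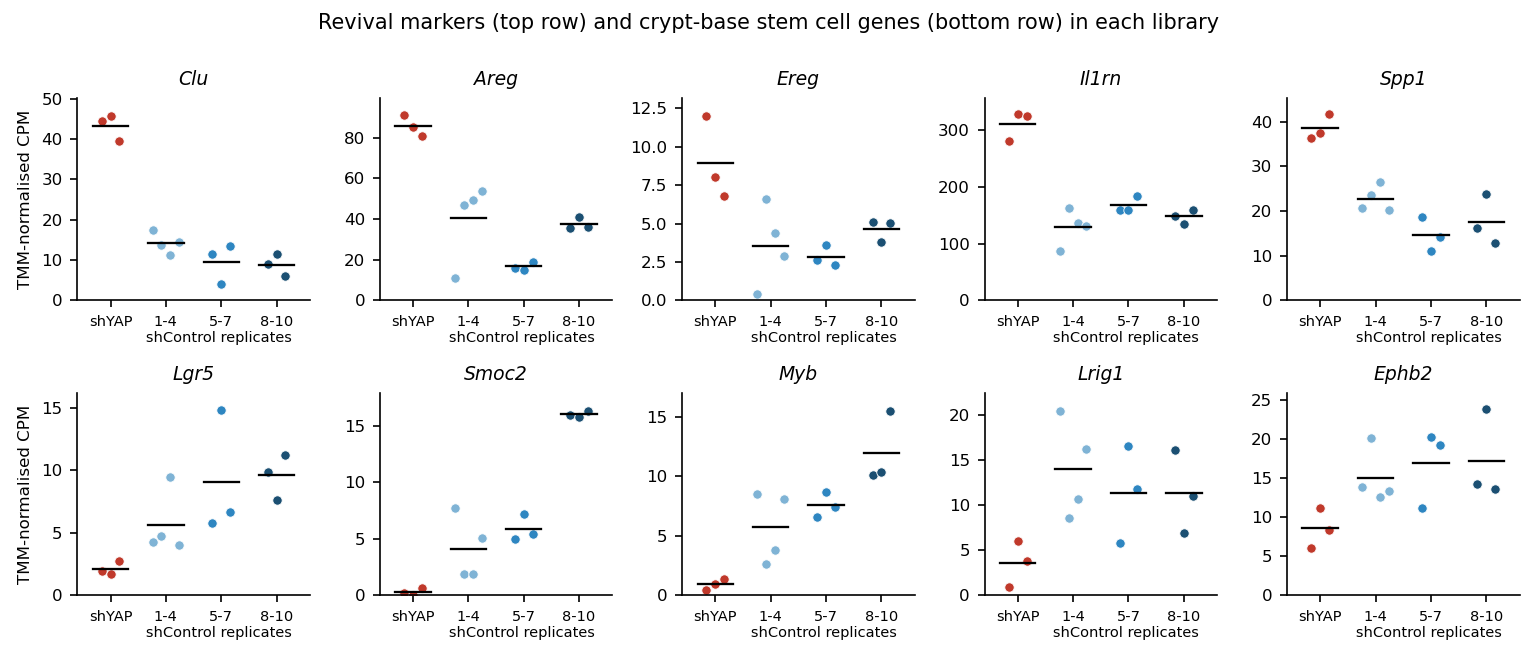
TMM-normalised CPM (vertical axes, linear, from 0) of 5 revival markers (top) and 5 crypt-base stem cell genes (bottom) in each shYAP-labelled library (red, left) and each shControl library by replicate number; black lines are means of the points above each tick. Clu lies at 39.5 to 45.7 CPM in shYAP-labelled libraries, above all shControl libraries, and Lgr5 lies at 1.70 to 2.72 CPM, below all of them.

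Wnt/beta-catenin targets and feedback genes were mixed, with 5 of 20 lower, 2 higher and a median of -0.60. Prox1 and Lgr5, described above, were among the lower, with Lef1, a transcription factor that works with beta-catenin (-1.38 ± 0.33, edgeR adjusted p = 0.0091), and Apcdd1, a Wnt inhibitor (-1.26 ± 0.32, adjusted p = 0.0167). The last of the 5, Dkk3, which encodes a secreted Dickkopf protein and is named after its values were seen, had 0 counts in shYAP-labelled libraries, where 3 counts would be 0.679 to 0.731 CPM, against 0.363 to 4.11 CPM in shControl. Dkk2, another Dickkopf gene, had 96.3, 101 and 79.6 CPM in shYAP-labelled libraries, against 19.1 to 58 CPM in shControl (median 31.2), a change of 1.42 ± 0.26 (edgeR adjusted p = 0.00153) and the cyclin Ccnd1 rose (0.58 ± 0.18, adjusted p = 0.0426). Axin2, Notum (a Wnt-inactivating enzyme, 0.055 ± 0.26) and Nkd1 (0.14 ± 0.17) did not pass. The count lower was 1, 1 and 3 without shYAP replicate 1, 2 and 3, and 1 with runs as random blocks, and the count higher was 1 in each. Against Scrambled 3 were lower and 4 higher, with Lef1 at 0.003 and Apcdd1 at 0.85.

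Some secretory lineage genes fell. Of 7 tested Paneth and deep crypt secretory genes, 3 fell: Reg4, a lectin-like gene of deep crypt secretory cells, had 3.42, 3.16 and 6.12 CPM in shYAP-labelled libraries, against 7.56 to 41.8 CPM in shControl (median 25.8), a change of -2.55 ± 0.43 (edgeR adjusted p = 0.000769). Pla2g2a, which encodes a secreted phospholipase and is annotated as a polymorphic pseudogene, had 11.5, 14.8 and 15 CPM in shYAP-labelled libraries, against 25.8 to 86.6 CPM in shControl (median 36.1), a change of -1.77 ± 0.44 (edgeR adjusted p = 0.0174), and the lectin gene Itln1 had 8.31, 7.3 and 6.58 CPM in shYAP-labelled libraries, against 18.3 to 34.4 CPM in shControl (median 23.9), a change of -1.76 ± 0.24 (adjusted p = 6.24e-05). The call of Pla2g2a was lost without any one of the 3 shYAP libraries. Of 6 goblet cell genes 2 fell, Klk1 with 7 counts and Creb3l1 with 4 counts over the 3 shYAP-labelled libraries (-3.04 ± 0.59 and -3.07 ± 0.76); Muc2 and Atoh1 were too low to test. Of 12 absorptive colonocyte genes, Slc20a1, a phosphate carrier gene (0.74 ± 0.23, edgeR adjusted p = 0.0399), and Ceacam1, an adhesion gene (0.39 ± 0.12, adjusted p = 0.0353), were higher and 0 lower, and neither held without shYAP replicate 2 or 3. Against replicates 8 to 10 alone, 8 of these genes were higher and 0 lower and the median was 0.76, beside 1 higher and 1 lower against 1 to 4 and 3 higher and 2 lower against 5 to 7. Over all genes, 11.9% were higher and 10.1% lower against 8 to 10. The shares were 12.3% and 13% against 1 to 4, and 14.9% and 14.8% against 5 to 7. Among 15 intestinal transcription factors, Isx, which controls vitamin A uptake genes, rose (1.47 ± 0.26, edgeR adjusted p = 0.00104), while Hnf4a (-0.61 ± 0.17, adjusted p = 0.0226), Elf3 (-0.74 ± 0.21, adjusted p = 0.0259) and Cdx1 (-2.02 ± 0.62) fell and Cdx2 did not pass (0.18 ± 0.28). Of the 3 falls, 0, 0 and 1 passed without shYAP replicate 1, 2 and 3.

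**Figure D3:**
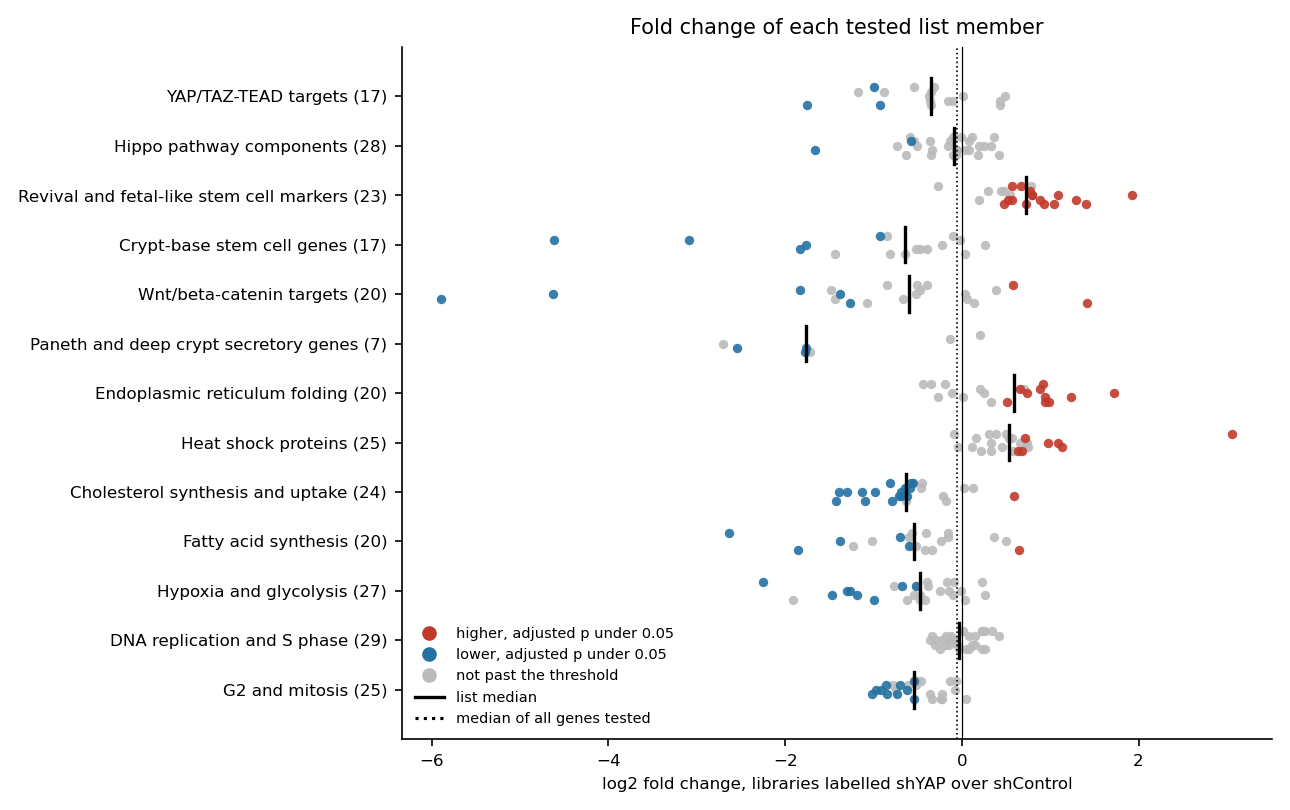
Log2 fold change (horizontal axis, shYAP-labelled libraries over shControl) of every tested member of 13 gene lists, with the number tested in brackets; red and blue points passed an edgeR adjusted p of 0.05 as higher and lower, grey points did not, black bars are list medians and the dotted line is the median of all genes tested. Revival markers (median 0.73) lie to the right, while cholesterol genes (median -0.64) and Paneth and deep crypt secretory genes (median -1.76) lie to the left.

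Of 20 endoplasmic reticulum folding genes, 10 rose, 0 fell and the median was 0.59. Creld2, a disulfide isomerase-like chaperone gene, had 129, 98.5 and 95.7 CPM in shYAP-labelled libraries, against 17.2 to 51.6 CPM in shControl (median 29.8), a change of 1.72 ± 0.24 (edgeR adjusted p = 0.00016). Calr, which encodes calreticulin, the lectin chaperone, had 489, 417 and 405 CPM in shYAP-labelled libraries, against 163 to 344 CPM in shControl (median 201), a change of 0.98 ± 0.18 (edgeR adjusted p = 0.00104). Dnajc3, a co-chaperone that dampens the kinase PERK, had 65, 86.3 and 79.1 CPM in shYAP-labelled libraries, against 25.7 to 52.3 CPM in shControl (median 39.5), a change of 0.94 ± 0.19 (edgeR adjusted p = 0.00227). In these 3 genes no shYAP-labelled library overlapped shControl, and they passed without each shYAP library in turn. Hspa5, which encodes BiP, the central chaperone of the compartment, had 1244, 1148 and 1109 CPM in shYAP-labelled libraries, against 402 to 1126 CPM in shControl (median 608), with shControl replicate 3, at 1126 CPM, inside their range (0.92 ± 0.22, edgeR adjusted p = 0.0139). Manf (1.24 ± 0.28, edgeR adjusted p = 0.0108) and Sdf2l1 (0.94 ± 0.29, adjusted p = 0.0373), secreted and retained chaperone factors, also passed. Xbp1 (-0.44 ± 0.15), which encodes a transcription factor of the unfolded protein response, and the chaperone genes Pdia4 (-0.19 ± 0.29) and Canx (0.016 ± 0.14) did not. The count higher was 5, 5 and 4 without shYAP replicate 1, 2 and 3, and 3 with runs as random blocks, and 7 passed against each run.

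The endoplasmic reticulum stress element, to which ATF6 binds with NF-Y, has the letters CCAAT and CCACG with 9 bases between them. On either strand it occurred in the RefSeq promoter windows of 8 of 18 listed genes with a window and in 37 of 27025 genes overall (0.137%). Of 13 genes with the element that were tested, 5 were higher and 1 lower (38.5% and 7.69%), and their median was 0.59; these overlap the list, so they are not separate evidence. The 5 listed genes that rose and hold the element are shown with 15 bases on each side, read along the gene's strand, with its fixed letters in capitals. They are from chr8:84847060-84847108 (minus strand), chr15:88819505-88819553, chr14:118937812-118937860, chr2:34772010-34772058 and chr12:17266476-17266524 (plus strand), GRCm38.p6.
Calr: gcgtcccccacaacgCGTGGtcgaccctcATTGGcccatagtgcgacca
Creld2: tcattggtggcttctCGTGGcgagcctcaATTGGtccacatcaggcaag
Dnajc3: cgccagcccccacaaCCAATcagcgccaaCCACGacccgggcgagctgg
Hspa5: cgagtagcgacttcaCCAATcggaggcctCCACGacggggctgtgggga
Pdia6: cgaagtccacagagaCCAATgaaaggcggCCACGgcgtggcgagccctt
In Calr and Creld2 the element lies on the other strand, so that it reads CGTGG first and ATTGG last. In Hspa5 it lies 47 to 65 bases before the start site. Canx, Hsp90b1 and Syvn1 hold it as well and did not pass the test (Canx 0.016 ± 0.14, Hsp90b1 0.20 ± 0.28, Syvn1 0.71 ± 0.51).

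Cytosolic and mitochondrial heat shock genes had 7 of 25 higher, 0 lower and a median of 0.53. Beside Hspb1, Hspa8, the constitutive Hsp70 gene, had 4945, 5251 and 5203 CPM in shYAP-labelled libraries, against 2012 to 3730 CPM in shControl (median 2240), a change of 0.97 ± 0.18 (edgeR adjusted p = 0.00154). Dnaja1, its co-chaperone, had 1492, 1540 and 1481 CPM in shYAP-labelled libraries, against 423 to 1099 CPM in shControl (median 587), a change of 1.14 ± 0.27 (edgeR adjusted p = 0.0135), Hsp90aa1 had 1.09 ± 0.32 (adjusted p = 0.0447) and the chaperonin subunit Cct3 0.71 ± 0.16 (adjusted p = 0.00564). The inducible Hspa1a had 10, 11.9 and 10.2 CPM in shYAP-labelled libraries, against 0.545 to 30.9 CPM in shControl, with shControl replicates 2 to 4 the highest (0.50 ± 1.04, edgeR adjusted p = 0.807). The count higher was 5, 3 and 3 without shYAP replicate 1, 2 and 3, and 3 with runs as random blocks. By run it was 7 against replicates 1 to 4, 20 against 5 to 7 and 17 against 8 to 10. The shares of all genes higher were 12.3%, 14.9% and 11.9% in the same order. Dnaja1 and Hsp90aa1 did not pass against replicates 1 to 4 and were lost without any one of the 3 shYAP libraries. Hsp70 and Hsp90 genes have close paralogs, so the split of reads among them is uncertain.

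Cholesterol synthesis and uptake genes, which SREBP2 drives when sterols are low, fell: 16 of 24 were lower, 1 higher and 7 did not pass, with a median of -0.64. Insig1, which encodes the sterol-sensing anchor of SREBP, had 25.9, 21.4 and 24.9 CPM in shYAP-labelled libraries, against 47.8 to 80.2 CPM in shControl (median 63.9), a change of -1.42 ± 0.20 (edgeR adjusted p = 9.35e-05). Lss, the lanosterol synthase gene, had 34.7, 30.6 and 37.9 CPM in shYAP-labelled libraries, against 53.8 to 109.5 CPM in shControl (median 80.5), a change of -1.30 ± 0.21 (edgeR adjusted p = 0.000296). Dhcr7, the last step to cholesterol, had 8.31, 5.59 and 9.98 CPM in shYAP-labelled libraries, against 13.6 to 25.8 CPM in shControl (median 22.6), a change of -1.40 ± 0.25 (edgeR adjusted p = 0.00117), and Cyp51, the lanosterol demethylase gene, had 128, 115 and 114 CPM in shYAP-labelled libraries, against 173 to 344 CPM in shControl (median 259.6), a change of -1.10 ± 0.21 (adjusted p = 0.00177). The groups did not overlap in any of these genes. The sterol carrier gene Stard4 (-1.13 ± 0.24, edgeR adjusted p = 0.0043) and the early enzyme gene Hmgcs1 (-0.99 ± 0.18, adjusted p = 0.00144) fell as well. Srebf2, which encodes SREBP2 itself, was the 1 member that rose, at 444, 418 and 376 CPM in shYAP-labelled libraries, against 177 to 353 CPM in shControl (median 296), a change of 0.59 ± 0.19 (edgeR adjusted p = 0.0467). Of the 16, 12 passed against each run, and the count lower was 9, 7 and 11 without shYAP replicate 1, 2 and 3, and 8 with runs as random blocks. Srebf2 did not pass in any of these.

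Fatty acid synthesis genes had 5 of 20 lower, 1 higher and a median of -0.54. Acss2, which makes acetyl-CoA from acetate, had 6.11, 4.62 and 5.67 CPM in shYAP-labelled libraries, against 16.7 to 55 CPM in shControl (median 28.2), a change of -2.63 ± 0.42 (edgeR adjusted p = 0.000714). Lpin1, a phosphatidate phosphatase gene, had 9.78, 5.59 and 12 CPM in shYAP-labelled libraries, against 15.9 to 55.2 CPM in shControl (median 32.7), a change of -1.86 ± 0.39 (edgeR adjusted p = 0.00564), and the desaturase Scd1 had 38.4, 36.2 and 45.6 CPM in shYAP-labelled libraries, against 72.9 to 159 CPM in shControl (median 79.6), a change of -1.38 ± 0.27 (adjusted p = 0.00272). These 3 lay below every shControl library. Scd2 (-0.70 ± 0.19, edgeR adjusted p = 0.0176) and the citrate lyase Acly (-0.59 ± 0.19, adjusted p = 0.0418) were lower, Agpat2, which makes phosphatidic acid, was higher (0.64 ± 0.18, adjusted p = 0.0223), and Fasn (-0.60 ± 0.27) and Srebf1 (-0.56 ± 0.29) did not pass. The synthesis genes lower were 3, 2 and 3, with 0 higher, without shYAP replicate 1, 2 and 3, and 5, 12 and 9 against replicates 1 to 4, 5 to 7 and 8 to 10. Against these runs 13%, 14.8% and 10.1% of all genes were lower. Of 17 fatty acid oxidation genes and PPAR targets, the fatty acid carrier Fabp4 (1.46 ± 0.33, edgeR adjusted p = 0.0101) and the dehydrogenase Acadl (0.63 ± 0.17, adjusted p = 0.0195) rose, and the receptor Pparg (-1.10 ± 0.32, adjusted p = 0.0342) and Decr1 (-0.81 ± 0.26, adjusted p = 0.0437) fell. Both falls were lost without any one shYAP library.

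Among 27 sphingolipid genes 2 rose and 1 fell. Degs1, the desaturase that turns dihydroceramide into ceramide, had 10.3, 18.7 and 16.3 CPM in shYAP-labelled libraries, against 2.67 to 8.21 CPM in shControl (median 5.14), above every shControl library (1.47 ± 0.29, edgeR adjusted p = 0.00205). It passed without each shYAP library in turn, but not against Scrambled or with runs as random blocks in limma. Acer3, an alkaline ceramidase gene, had 0.58 ± 0.18 (edgeR adjusted p = 0.045), lost without any one shYAP library. Ugcg, which makes glucosylceramide from ceramide, had 12, 7.78 and 6.8 CPM in shYAP-labelled libraries, against 20 to 40 CPM in shControl (median 34.3), below every shControl library (-1.84 ± 0.26, edgeR adjusted p = 9.41e-05). The list median was 0.003, and the serine palmitoyltransferase subunits Sptlc1 (0.72 ± 0.24) and Sptlc2 (0.21 ± 0.15) did not pass.

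Hypoxia response and glycolysis genes had 8 of 27 lower, 0 higher and a median of -0.48. Car9, the carbonic anhydrase that hypoxia induces, had 13.4, 11.4 and 13.8 CPM in shYAP-labelled libraries, against 27.4 to 100.5 CPM in shControl (median 67.8), a change of -2.25 ± 0.49 (edgeR adjusted p = 0.0105), with shControl replicates 6 and 8 to 10 the lowest controls. Its call was lost without any one of the 3 shYAP libraries. Vegfa, the angiogenic growth factor gene, had 26.1, 28.5 and 21.1 CPM in shYAP-labelled libraries, against 36.5 to 101 CPM in shControl (median 76.5), a change of -1.47 ± 0.27 (edgeR adjusted p = 0.00136). Ndrg1, a stress and hypoxia gene, had 52.8, 54.7 and 48.3 CPM in shYAP-labelled libraries, against 106 to 147 CPM in shControl (median 119), a change of -1.27 ± 0.16 (edgeR adjusted p = 2.12e-05), and Ankrd37 had 18.3, 23.1 and 14.7 CPM in shYAP-labelled libraries, against 34.3 to 61.1 CPM in shControl (median 45.5), a change of -1.30 ± 0.21 (adjusted p = 0.000271). All 4 lay below every shControl library. Pfkfb3, which raises glycolytic flux (-1.18 ± 0.28, edgeR adjusted p = 0.00855), the mitochondrial kinase Pdk1 (-0.99 ± 0.22, adjusted p = 0.00655), Bnip3 (-0.68 ± 0.16, adjusted p = 0.00985) and the glucose carrier Slc2a1 (-0.52 ± 0.16, adjusted p = 0.0376) completed the 8. The glycolytic enzymes Ldha (0.26 ± 0.11), Pkm (-0.10 ± 0.12) and Gapdh (-0.14 ± 0.18) did not pass. Without shYAP replicate 1, 2 and 3, 3, 5 and 6 members were lower, and 5 with runs as random blocks. By run, 18 were lower against replicates 1 to 4, 19 against 5 to 7 and 8 against 8 to 10. The shares of all genes lower were 13%, 14.8% and 10.1% in the same order.

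**Figure D4:**
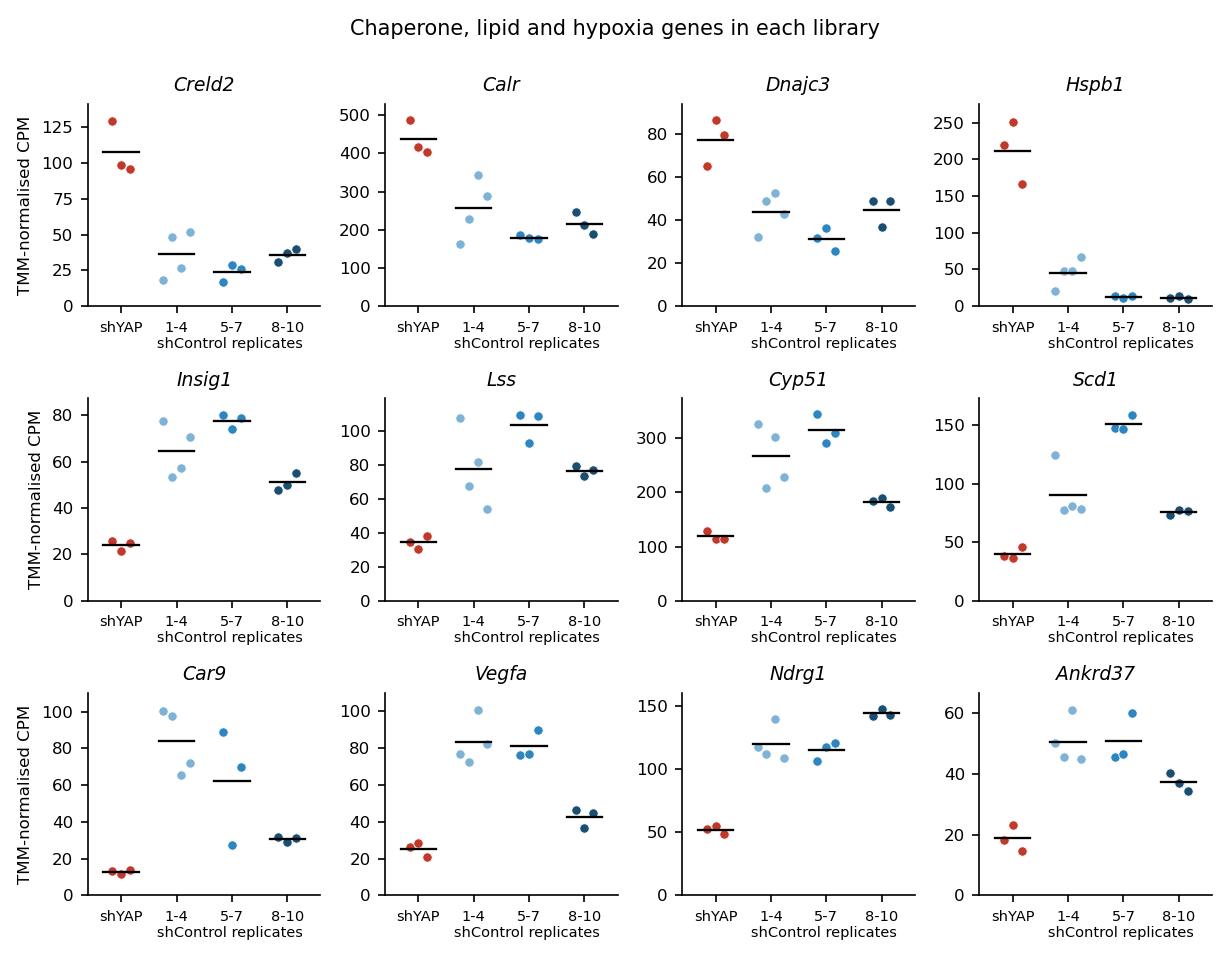
TMM-normalised CPM (vertical axes, linear, from 0) of chaperone genes (top), lipid synthesis genes (middle) and hypoxia genes (bottom) in each shYAP-labelled library (red, left) and each shControl library by replicate number; black lines are means of the points above each tick. In all 12 genes shYAP-labelled libraries lie on one side of every shControl library, such as Insig1 at 21.4 to 25.9 CPM, against 47.8 to 80.2 CPM in shControl.

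Proliferation genes split by phase and by run. Of 25 G2 and mitosis genes 10 fell, 0 rose and the median was -0.54, with 24 of 25 below 0. Ccnb2, a mitotic cyclin, had 26.6, 28.9 and 25.2 CPM in shYAP-labelled libraries, against 46 to 69.4 CPM in shControl (median 50.2), below every shControl library (-0.98 ± 0.17, edgeR adjusted p = 0.000735). Mki67, the proliferation antigen gene, had 46.2, 31.9 and 42.2 CPM in shYAP-labelled libraries, against 44.4 to 139.8 CPM in shControl (median 70.7) with overlap (-0.92 ± 0.25, edgeR adjusted p = 0.0228), and shControl replicate 3 was the highest control. Aurkb, a kinase of chromosome segregation (-1.01 ± 0.24, edgeR adjusted p = 0.00921), Hmmr, a spindle protein gene (-0.86 ± 0.21, adjusted p = 0.0119), and Kif23, a kinesin of cytokinesis (-0.85 ± 0.24, adjusted p = 0.0245), also fell. The count lower was 3, 2 and 3 without shYAP replicate 1, 2 and 3, and 2 with runs as random blocks. Ccnb2 was the only one of the 5 named here to pass in all 3. By run, 14 were lower against replicates 1 to 4, 5 against 5 to 7 and 20 against 8 to 10. The shares of all genes lower were 13%, 14.8% and 10.1% in the same order.

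Of 29 DNA replication and S phase genes 0 passed over all shControl libraries, and the median was -0.03. That summary hid opposite values: the median was 0.32 against replicates 1 to 4, 0.39 against 5 to 7 and -0.55 against 8 to 10, where 19 were lower and 0 higher. In that last comparison 10.1% of all genes were lower and 11.9% higher. Tyms, the thymidylate synthase gene, had 169, 155 and 169 CPM in shYAP-labelled libraries, and shControl had 82.5 to 141 CPM in replicates 1 to 7 and 222 to 247 in replicates 8 to 10. Rrm1 (-0.18 ± 0.21) and Pcna (-0.34 ± 0.16) did not pass over all libraries. Trp53 also depended on the run, at 1.67 against replicates 1 to 4, 0.45 against 5 to 7 and -1.17 against 8 to 10; it had 7.58, 9.49 and 11.1 CPM in shYAP-labelled libraries, against 1.54 to 8.59 CPM in shControl replicates 1 to 7 and 18.6 to 22.7 in 8 to 10. Of 18 genes of the p53 pathway, Plk2 rose (0.85 ± 0.20, edgeR adjusted p = 0.00994) and Cdkn1a did not pass (-0.0043 ± 0.19).

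**Figure D5:**
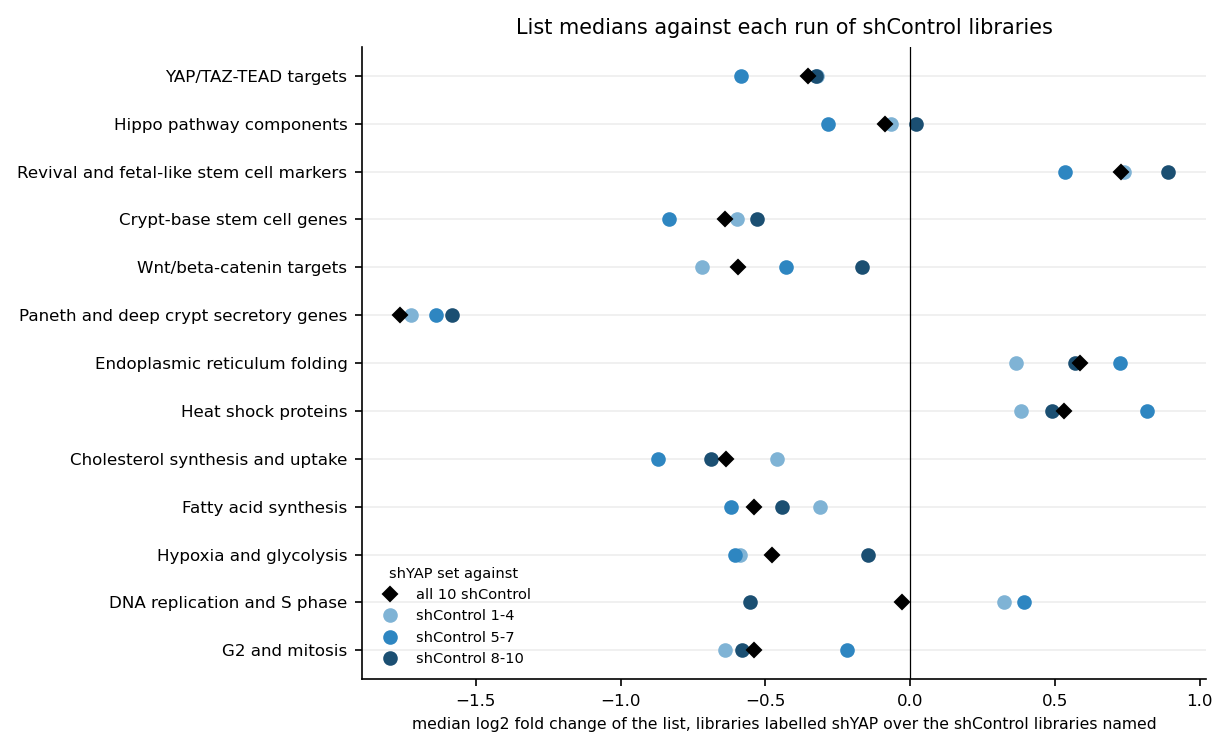
Median log2 fold change (horizontal axis) of the tested members of 13 gene lists, with shYAP-labelled libraries set against all 10 shControl libraries (diamonds) and against replicates 1 to 4, 5 to 7 and 8 to 10 alone (circles, light to dark). Revival markers stay at 0.53 to 0.89 in every run, while DNA replication and S phase genes lie at 0.32 and 0.39 against the first runs and at -0.55 against replicates 8 to 10.

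Calls in the BMP and EGFR lists went in both directions, where 5.47% of all genes were higher and 5.9% lower. Of 19 BMP and TGF-beta genes, 1 rose, Bmp4, and 3 fell, among them the ligand Bmp7 (8 counts over shYAP-labelled libraries, -2.56 ± 0.55, edgeR adjusted p = 0.00459) and Id2, a target of BMP signalling. Id2 had 350.4, 356 and 340.1 CPM in shYAP-labelled libraries, against 612 to 911 CPM in shControl (median 749.5), without overlap (-1.11 ± 0.14, edgeR adjusted p = 3.56e-05), and Id1 (-0.16 ± 0.17) and Id3 (0.053 ± 0.16), from the same family, did not pass. Among 10 EGFR ligands and ErbB genes, Areg, Ereg and Btc (0.61 ± 0.15, edgeR adjusted p = 0.0128) rose, and Lrig1 and the receptor Erbb2 (-1.18 ± 0.36, adjusted p = 0.0353) fell; Egfr did not pass (0.25 ± 0.33). Without shYAP replicate 1, 2 and 3 this list had 0, 0 and 1 members higher and 0, 1 and 0 lower, and with runs as random blocks 0 of each. Of 9 Notch genes Hes6 fell (-0.78 ± 0.23, edgeR adjusted p = 0.0342).

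In the NF-kappaB and chemokine list 4 of 15 rose and 0 fell, with a median of 0.06. Icam1 had 34.7, 47.9 and 31.3 CPM in shYAP-labelled libraries, against 3.09 to 22.9 CPM in shControl (median 9.04), a change of 1.94 ± 0.42 (edgeR adjusted p = 0.00844), and the chemokines Cxcl16 (0.99 ± 0.24, adjusted p = 0.0113) and Cxcl5 (1.79 ± 0.49, adjusted p = 0.0225) were higher, with overlap in Cxcl5. Il18, named after its values were seen, had 3.42, 3.65 and 2.49 CPM, against 0 to 1.4 CPM in shControl (2.21 ± 0.62, edgeR adjusted p = 0.0235). The pathway's feedback gene Nfkbia (-0.27 ± 0.26) did not pass. The count higher was 2, 1 and 2 without shYAP replicate 1, 2 and 3, and 1 with runs as random blocks or against Scrambled, where Icam1 had 0.95 (edgeR adjusted p = 0.232). Of 22 AP-1 and immediate early genes, Fosl1, which encodes the AP-1 factor FRA1, rose to 19.6, 20.7 and 17 CPM, against 1.23 to 14.2 CPM in shControl (1.64 ± 0.40, edgeR adjusted p = 0.0133), while Fos (-1.19 ± 0.31, adjusted p = 0.0182) and Etv5, an ERK-induced factor gene (-1.50 ± 0.28, adjusted p = 0.00132), fell. Of 18 interferon and antigen presentation genes, Ifitm3, an antiviral membrane protein gene, had 96, 90.2 and 104 CPM in shYAP-labelled libraries, against 287 to 566 CPM in shControl (median 393), a change of -2.10 ± 0.20 (edgeR adjusted p = 7.13e-07); Usp18 fell with it (-2.46 ± 0.38, adjusted p = 0.000226), and the class I gene H2-D1 rose (0.78 ± 0.13, adjusted p = 0.000425). Ifitm3 and Usp18 did not pass against Scrambled.

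Calls among adhesion and structure genes are set beside the 11.4% of all genes that passed. Vim, which encodes vimentin, had 8.8, 5.35 and 6.8 CPM in shYAP-labelled libraries, against 24 to 57.7 CPM in shControl (median 30.7), below every shControl library (-2.26 ± 0.28, edgeR adjusted p = 2.55e-05), and Epcam, the epithelial adhesion gene, had -0.63 ± 0.16 (adjusted p = 0.0145), also below all. The gene of claudin-2, a pore-forming tight junction protein, rose (Cldn2, 1.22 ± 0.32, edgeR adjusted p = 0.0174) but had -1.11 against Scrambled, and 23 of 26 genes of that list did not pass, Cdh1 among them (-0.16 ± 0.15). Of 20 integrin, laminin and matrix genes, 2 rose and 1 fell. Thbs1, a matricellular gene, had 41.1, 31.9 and 24.7 CPM in shYAP-labelled libraries, against 5.4 to 14.5 CPM in shControl (median 10.9), a change of 1.61 ± 0.23 (edgeR adjusted p = 9.41e-05), and the laminin chain gene Lamb1 fell with 4 counts left (-3.33 ± 0.75, adjusted p = 0.00661). The actin crosslinker Flna rose (0.91 ± 0.20, edgeR adjusted p = 0.00596), the 1 of 18 cytoskeleton and SRF genes to pass. Krt4 rose (1.47 ± 0.27, edgeR adjusted p = 0.002) and Krt23 fell (-0.56 ± 0.17, adjusted p = 0.0384) among 12 simple and basal keratins, and Krt31 rose (1.96 ± 0.52, adjusted p = 0.0235) among 11 hair-type keratins, whose median was 0.66 over all shControl libraries, 3.32 against replicates 1 to 4 and 0.15 against 5 to 7. Keratin paralogs share sequence, so reads may be split wrongly among them. Without any 1 shYAP library, and with runs as random blocks, 0 tight junction genes were higher, so Cldn2 was lost. Krt23 and Krt31 were lost as well, with 0 simple and basal keratins lower and 0 hair-type keratins higher. Simple and basal keratins had 1 higher in each of these fits. Cytoskeleton genes had 1 higher without any 1 shYAP library and 0 with runs as random blocks.

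Detoxification genes changed in both directions, 4 of 16 higher and 4 lower. Cyp1b1, a cytochrome P450 of the aryl hydrocarbon receptor response, had 24.4, 18.7 and 24.5 CPM in shYAP-labelled libraries, against 0.386 to 4.34 CPM in shControl (median 1.99), a change of 3.38 ± 0.32 (edgeR adjusted p = 7.13e-07), and Aldh1a1, which makes retinoic acid, had 10.8, 11.4 and 11.6 CPM in shYAP-labelled libraries, against 0 to 2.71 CPM in shControl (median 1.72), a change of 2.80 ± 0.45 (adjusted p = 0.000295). Both lay above every shControl library and passed without each shYAP library in turn. Cyp3a13 (2.25 ± 0.37) and Sult1a1 (1.22 ± 0.39) also rose, and Ugt2b34, the efflux pump Abcc2 (-3.59 ± 0.84, edgeR adjusted p = 0.0116), Ugt1a7c (-2.96 ± 0.84) and Cyp2s1 (-1.05 ± 0.25) fell. Of 24 NRF2 and glutathione genes, 5 rose and 1 fell: Slc7a11, the cystine importer, had 225, 211 and 236 CPM in shYAP-labelled libraries, against 89.4 to 131 CPM in shControl (median 118), a change of 0.97 ± 0.13 (edgeR adjusted p = 7.74e-05), and Gsr, the glutathione reductase gene, had -0.65 ± 0.19 (adjusted p = 0.0302). Gpx2 (0.53 ± 0.14), Gsta4 (0.53 ± 0.15), Prdx1 (0.46 ± 0.13) and G6pdx (0.43 ± 0.12), whose products detoxify peroxides or electrophiles or supply NADPH, were higher, and Nqo1 did not pass (0.17 ± 0.26). Leaving out any one shYAP library left 1 NRF2 gene higher and 0 lower, as did runs as random blocks. The detoxification genes higher were 3, 3 and 3, and those lower 1, 1 and 3, without shYAP replicate 1, 2 and 3. In the integrated stress response list of 23, Slc7a11 rose and Vldlr (-1.44 ± 0.28, edgeR adjusted p = 0.00188) and Cth, which makes cysteine from cystathionine (-1.42 ± 0.28, adjusted p = 0.00267), fell, while Atf4 (-0.36 ± 0.21) and Asns (-0.16 ± 0.19) did not pass. This list turned with the run: 2 were higher and 9 lower against replicates 1 to 4 (median -0.30), 9 higher and 2 lower against 5 to 7 (0.30), and 2 higher and 10 lower against 8 to 10 (-0.37). In the same order, 12.3%, 14.9% and 11.9% of all genes were higher and 13%, 14.8% and 10.1% lower.

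Housekeeping lists gave few calls over all shControl libraries, where 11.4% of all genes passed, and more by run, as did all genes. Of all genes, 12.3% were higher and 13% lower against replicates 1 to 4. The shares were 14.9% and 14.8% against 5 to 7, and 11.9% and 10.1% against 8 to 10. Of 47 ribosomal protein genes, 1 rose, Rps23 (0.52 ± 0.12, edgeR adjusted p = 0.00846), and 2 fell, Rps18 (-0.57 ± 0.11, adjusted p = 0.00249) among them, with processed copies in the genome that can take reads. Of 37 respiratory chain genes 2 rose and 1 fell, Uqcrfs1 (0.52 ± 0.15), Cycs (0.45 ± 0.14) and Atp5o (-0.44 ± 0.13), and of 13 mitochondrially encoded mRNAs mt-Co2 fell (-0.47 ± 0.14, edgeR adjusted p = 0.0373), with nuclear copies that make it uncertain. Without any 1 shYAP library, and with runs as random blocks, respiratory chain genes and mitochondrial mRNAs had 0 higher and 0 lower. Ribosomal protein genes had 1, 1 and 0 higher and 1, 1 and 1 lower without shYAP replicate 1, 2 and 3. Against Scrambled, 3 mitochondrial mRNAs were higher and 0 lower, and 4 respiratory chain genes were higher and 6 lower. Respiratory chain genes had 6 higher and 11 lower against replicates 1 to 4, 11 and 1 against 5 to 7, and 6 and 7 against 8 to 10. The mitochondrial mRNAs had 5 higher and 5 lower, 5 and 2, and 0 and 4 in the same order, and the ribosomal protein genes 5 and 9, 8 and 4, and 10 and 3. Of 2 testable enteroendocrine and tuft genes 0 passed, Avil at 0.71 ± 0.26 and Pyy at -2.37 ± 1.58.

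The design also allowed the shYAP effect to be set against the Degs1 knockout effect (both clones, weighted equally, against Scrambled), which uses none of the same libraries. Their difference passed for 2253 of 11960 genes (18.8%), 1076 higher (9%) and 1177 lower (9.84%). Revival markers had 11 of 23 higher in this difference and 0 lower. The knockout effect alone was mixed in this list: 4 markers rose, 5 fell and the list median lay at 0.025. Clu was 1.92 ± 0.25 in the shYAP effect and -1.53 ± 0.31 in the knockout effect, a difference of 3.46 ± 0.42 (edgeR adjusted p = 7.39e-08). The tight junction gene Cldn2 was 1.22 ± 0.32 in the shYAP effect and -3.75 ± 0.31 in the knockout effect, a difference of 4.98 ± 0.48 (edgeR adjusted p = 1.33e-10). Endoplasmic reticulum folding genes had 11 of 20 higher and 0 lower, and cholesterol genes 0 of 24 higher and 14 lower, Insig1 at -1.42 ± 0.20 and 0.63 ± 0.19. The YAP reporter Ccn2 was 0.43 ± 0.28 and -1.59 ± 0.24, a difference of 2.03 ± 0.36 (edgeR adjusted p = 6.24e-05), while Ccn1 was -0.92 ± 0.30 in the shYAP effect and -0.92 ± 0.28 in the knockout effect. Degs1 itself was 1.47 ± 0.29 and -1.85 ± 0.34. Bex1 was almost lost in both, at -5.22 ± 0.53 in the shYAP effect and -4.94 ± 0.32 in the knockout effect.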

How the data were processed

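Poly(A)-selected stranded libraries of the 13 hairpin organoids were analysed, with the Scrambled and Degs1 knockout libraries for one further contrast. The deposited values were expected counts per gene, already whole numbers, made by the authors with Salmon 1.3.0 on mm10, per the submitters' processing notes. Rows without a gene name (1243, at most 0.0475% of counts) were left out of the choice of named genes. From these counts, edgeR 4.0.16 (R 4.3.3) gave robust quasi-likelihood tests after a filter (at least 10 counts, 15 in all) and TMM scaling, with p-values adjusted by Benjamini-Hochberg over all genes and a threshold of 0.05. SE is the fold change over the root of F. Levels are TMM-normalised CPM. The shYAP effect against the knockout effect was fitted over all 34 libraries. limma 3.58.1, DESeq2 1.42.0, other filters, scalings, blocks and subsets of libraries were alternatives. The script was tested on simulated counts.

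Named genes were the 12 largest rises and falls whose mean log2 CPM reached 3, the listed YAP targets, and up to 5 members past the threshold per list; any other member was picked on its values. The members and all 37 gene lists were chosen with earlier results of these data known. Positions are from GENCODE M21. Same-numbered shYAP and shControl replicates did not deviate together (r 0.0119, -0.026 and -0.07), so the numbers do not pair them. A few of the genes the rule selected are not reported here.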

Additional observations from a re-analysis of the deposited data

Results flagged for a closer look

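In 10 of 155 genes examined, 1 shControl library lay apart from the other 9 by Dixon's ratio, each time as the highest. Whether chance gives such a share was not tested. Replicate 3, the shallowest library, was the high one for Mki67 (140 CPM), Kif23 (71.2 CPM), Fos (91.3 CPM) and Cdx1 (12 CPM). Replicate 5 was high for Gsta4 (145 CPM) and Cxcl5 (8.59 CPM). The others were Wwc1 in replicate 6 (19.8 CPM), Arhgef17 in replicate 4 (5.74 CPM), Vim in replicate 2 (57.7 CPM) and Rps18 in replicate 1 (11800 CPM). Each is a control library, so it bears on the spread and the mean of shControl, and through these on the fold change of that gene.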

How the results depend on the processing

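The count of genes past the threshold (1261, with 607 higher and 654 lower) was 1280 with DESeq2's size factors, 1664 with DESeq2's test, 1276 with no filter, 1244 with limma, 1398 (685 and 713) without shControl replicate 3, 1484 against replicates 5 to 10 and 1339 against Scrambled. It was 412 to 515 without 1 shYAP library (192 to 248 higher, 220 to 274 lower) and 298 (122 and 176) with runs as random blocks in limma. Against replicates 1 to 4 it was 2604 (1267 and 1337), against 5 to 7 it was 3024 (1519 and 1505), against 8 to 10 it was 2229 (1207 and 1022) and in 1 fit of all 34 libraries 2065 (1004 and 1061). At an adjusted p of 0.01, 453 genes passed (215 and 238), with an absolute log2 fold change of at least 1, 591 (179 and 412), and against each of the 3 runs, an alternative added after seeing the data like the single runs, 711 (391 and 320). The replicate block gave 1730 genes, and it is a fit on numbers that do not pair the libraries. Replicate numbers 4 to 10 occur only in shControl, so under this block the shYAP effect rests on shControl replicates 1 to 3. Yap1 had 0.70 there. The cause of the other shifts was not tested.

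YAP/TAZ-TEAD targets higher were 1 against replicates 1 to 4, 3 against 8 to 10, 1 in the fit of all libraries and 1 against Scrambled. Targets lower were 0 without any 1 shYAP library, 2 without shControl replicate 3, 1 against replicates 5 to 10, 1 against 8 to 10 and 0 with runs as random blocks in limma. Revival markers higher were 9 to 10 without 1 shYAP library, 17 without shControl replicate 3, 6 against Scrambled and 8 with runs as random blocks in limma, and 1 was lower against replicates 5 to 7.

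Log2 fold changes that turned round were these. Against replicates 5 to 7, Yap1 had -0.065, Wwtr1 -0.28, Trp53 0.45, Ccn2 -0.093 and Rrm1 0.35. Against replicates 1 to 4, Wwtr1 had -0.064, Trp53 1.67 and Amotl2 0.14. Against 5 to 10, Ankrd1 had -0.13 and Tyms -0.088, and against 8 to 10, Crim1 had 0.50, Wwc1 0.45 and Tyms -0.51. Under the replicate block, Wwtr1 had -0.024, Trp53 1.58, Ankrd1 -0.058, Amotl2 0.50, Wwc1 0.28 and Pyy 4.25. With 1 library left out, Wwtr1 had -0.096 to 0.14, Ankrd1 had -0.42 to 0.38, Trp53 had -0.22 to 0.074, Lats2 had -0.35 to 0.022 and Wwc1 had -0.21 to 0.053. With limma, Trp53 had 0.40, Lats2 0.14 and Wwc1 0.018, and with its run block 0.33, 0.14 and 0.017. Against Scrambled, Trp53 had 0.27, Ccn2 -0.38, Amotl2 0.15, Lats2 0.026, Crim1 0.38, Myof -0.047, Wwc1 0.47, Spp1 -0.11, Lef1 0.0026, Apcdd1 0.85, Ceacam1 -0.20, Pyy 0.41, Acadl -0.12, Gsta4 -0.24, Cldn2 -1.11, Uqcrfs1 -0.10 and Isx -0.49. The cause was not tested. Of the other values of named genes, 1992 kept direction and side of the threshold, 319 fell short of it and 16 newly passed. Depth limits genes under about 0.7 CPM, where 3 counts stand.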

Other observations

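Genes of chromosome 13 had a median log2 fold change of 0.07, with 9.22% higher and 3.88% lower in the libraries labelled shYAP, where 5.47% and 5.9% of all genes were. On chromosome 3, 9.12% were higher and 6.98% lower. Both were picked from all chromosomes after their values were seen.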
